A study of Mus musculus with 4 samples.

Results

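The chemokine and chemokine receptor genes were taken from the deposited expression table by gene symbol: every symbol that starts with Ccl, Cxcl, Ccr, Cxcr or Ackr followed by a digit, and Xcl1, Xcr1, Cx3cl1, Cx3cr1 and Ccrl2. This gave 58 genes of the 19088 in the table, 34 of them ligands and 24 receptors. The RNA came from group 2 innate lymphoid cells (ILC2s), lymphocytes of tissues that make type 2 cytokines, sorted from the epididymal fat of male C57BL/6 mice at 8 weeks of age, with 2 libraries in each of 2 groups. The WT mice were R5/+ and the KO mice were R5/+Stk11f/f, so both groups carried the R5 allele and the KO mice also carried floxed Stk11, the gene of the kinase LKB1. The labels do not spell out R5 or name the promoter that drives a recombinase, and nothing in them says that the libraries come from separate mice, so the spread behind each p-value is that between libraries and may be technical.

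Chemokines are small secreted proteins that steer the movement of leukocytes. They are grouped by the spacing of the cysteines near their start into CC, CXC, XC and CX3C ligands, and they act on receptors that couple to inhibitory G proteins. Atypical receptors bind or present chemokines without signalling through G proteins. ILC2s are mostly resident in tissue, and in adipose tissue they both receive chemokine signals and release chemokines that bring in eosinophils, monocytes and T cells.

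The DNA before a start of 5 ligand genes and 1 receptor gene is shown because these were the members whose RefSeq promoter window (assembly GRCm38.p6, from 250 bases before to 50 after a start of the gene) held, on either strand, a motif of 10 bases: GGGA, any 2 bases, then TTCC. This is a form of the site that NF-kB proteins bind, and NF-kB is known to drive many inflammatory chemokine genes. A window was found for 46 of the 58 members and held the motif in 6. The same motif lay in a window of 1.63% of the 27025 genes that have one. The bases in capitals are the motif, or its complement read on the other strand. Where it reads on both strands the matches overlap by all but 1 base, and the capitals then span 11 bases. The Ccl1 window is given whole up to the gene's start and the others with 40 bases on each side, each on the strand of its gene. For Ccr3 the window belongs to a start inside the gene, which RefSeq places on chromosome 9 from 124017825 to 124031692.
Ccl1, chr11:82179813-82180062, minus strand: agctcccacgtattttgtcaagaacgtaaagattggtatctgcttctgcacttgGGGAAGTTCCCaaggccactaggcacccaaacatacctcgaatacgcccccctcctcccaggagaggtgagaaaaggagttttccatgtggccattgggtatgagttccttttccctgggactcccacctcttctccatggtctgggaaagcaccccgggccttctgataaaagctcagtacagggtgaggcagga
Cxcl1, chr5:90891134-90891224, plus strand: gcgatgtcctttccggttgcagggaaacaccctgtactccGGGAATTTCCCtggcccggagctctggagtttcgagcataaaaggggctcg
Cxcl2, chr5:90903762-90903852, plus strand: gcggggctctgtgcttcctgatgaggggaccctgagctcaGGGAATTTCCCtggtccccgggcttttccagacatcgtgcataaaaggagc
Cxcl3, chr5:90785988-90786078, plus strand: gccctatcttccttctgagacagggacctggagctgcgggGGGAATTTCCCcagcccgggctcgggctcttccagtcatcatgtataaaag
Cxcl10, chr5:92348999-92349088, minus strand: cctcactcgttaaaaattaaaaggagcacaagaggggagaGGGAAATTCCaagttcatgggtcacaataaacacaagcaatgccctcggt
Ccr3, chr9:124021752-124021841, plus strand: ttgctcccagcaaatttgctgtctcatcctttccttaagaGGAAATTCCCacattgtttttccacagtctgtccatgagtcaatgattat
The neighbouring genes Cxcl1, Cxcl2 and Cxcl3 carried the same 11 bases, which began 71, 97 and 73 bases before the gene's start. In Ccl1 the site began 196 bases before the start, and its middle differed from theirs. A match of letters is a description of the window and shows no binding.

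The table gives FPKM (fragments scaled to transcript length and to all mapped fragments of the library), and its steps between low values correspond to about 18400000 to 21800000 fragments a library. One fragment on a transcript of 1000 nt is then worth 0.0573 to 0.0679 FPKM, so values of a few hundredths rest on about 1 fragment. Library values correlated at 0.912 to 0.935 across the genes tested. Stk11, the targeted gene, measured 43.1 and 39.1 FPKM in WT, against 31.9 and 16.6 for KO. It was lower in both KO libraries and missed the threshold (limma, log2 fold change -0.81, SE 0.37, adjusted p = 0.548). The 15 ILC2 markers, Gata3 and Il1rl1 among them, were all present, with summed levels of 9721.8 and 10098.4 FPKM in WT and 9585.1 and 9302.4 FPKM in KO. The largest part was Id2, at 5016.8 and 5149.2 FPKM in WT and 4870.5 and 5316.6 FPKM in KO. Within the list Icos was higher and Arg1, Rora, Il1rl1 and Thy1 were lower in both KO libraries, and the others overlapped. The share of ILC2s in each library was not tested. All 10 mast cell and basophil markers in the table were higher on average in KO, 2 of them past the threshold, and their sum was 16100.6 and 13434.4 FPKM in WT against 25157.3 and 39374.4 FPKM in KO. Red blood cell genes summed to 53232.1 and 84123.7 FPKM in WT and to 67479.4 and 26662.3 FPKM in KO.

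Among the abundant members, Ccl1 and Ccr2 stood lower and Ccl2 and Cxcr4 higher in both KO libraries than in both WT libraries, but no member passed the test. Of the 36 members that reached a mean of 1 FPKM over the 4 libraries, 0 passed an adjusted p of 0.05 in limma on log2(FPKM + 1), and 0.214% of all 9818 genes tested did. Adjusted p-values of the members ran from 0.0986 to 1.00. At an unadjusted p under 0.05 stood 9 of the 36, 4 higher and 5 lower in KO, beside 9.18% of all genes tested. These 9 were Ccl25, Ccl4, Cxcr4 and Ccl2, which were higher in KO, and Ccl1, Ccr2, Ackr1, Ccl21c and Ccl21d, which were lower. Ccl21c and Ccl21d have identical values in every library and are a single measurement counted under both names. Among the alternatives with all 4 libraries, the count was 6 of 21 with a filter of 5 FPKM in 2 libraries and 11 of 58 with no filter. In the others it ran from 9 to 13 of the 36. The share over all genes in these alternatives is not given here.

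The groups did not overlap in 18 of the 36 members, 13 of them lower and 5 higher in KO, beside 39.1% of all genes tested (20.6% lower and 18.5% higher). The median log2 fold change (KO minus WT) was -0.31 over the 36 members and -0.01 over all genes tested. Without WT replicate 1 the members' median was -0.03, and without WT replicate 2 it was -0.53. Of the 36, 12 had a mean under 1 FPKM in one of the groups, 9 in KO and 3 in WT, so they passed the filter through the other group and had to differ. These 12 were Ackr1, Ccl6, Ccl9, Ccl11, Ccl21b, Ccl21c, Ccl21d, Ccl25, Ccr1, Ccr3, Cxcl16 and Xcl1. Of them, Ackr1, Ccl11, Ccl21c, Ccl21d, Ccl25, Ccr1, Ccr3 and Cxcl16 are among the 18 without overlap, all but Ccl25 lower in KO. Ackr1, Ccl21c, Ccl21d and Ccl25 are also among the members named above for their unadjusted p. The 22 members under the filter reached at most 3.65 FPKM in any library, and 18 of them were at 0 in at least 1 library.

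**Figure D1:**
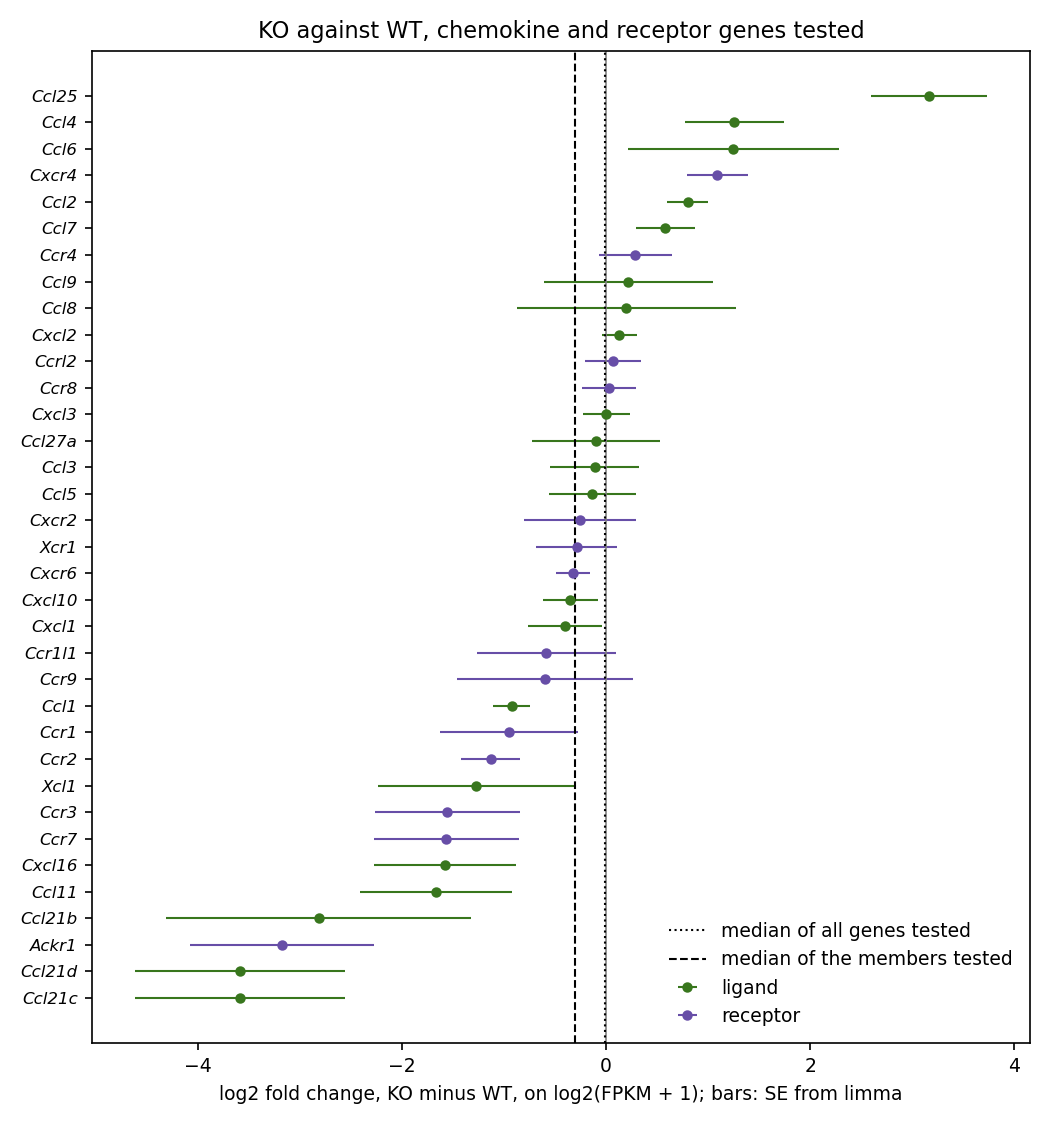
Log2 fold change (KO minus WT, on log2(FPKM + 1), x axis) of the chemokine and receptor genes tested and reported here, with SE from limma as bars, ligands in green and receptors in purple. The members' median (dashed) lies at -0.31 and that of all genes tested (dotted) at -0.01, and the members furthest from 0 are low genes with long error bars.

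The ligand RNA of these libraries came mostly from 6 genes: Ccl1, Ccl2, Ccl7, Cxcl1, Cxcl2 and Ccl4. The 34 ligands together summed to 7213.2 and 7214.6 FPKM in WT and to 5956.7 and 8111.0 FPKM in KO, which was 0.732% and 0.675% of all FPKM in WT and 0.634% and 0.860% in KO, so the groups overlapped in total ligand RNA. The shares of Ccl1 and Ccl2 in it, which were not tested, lay apart between the groups, and this did not hold for every abundant ligand. Ccl1 made up 45.1% and 51.6% of ligand FPKM in WT and 26.1% and 26.6% in KO. Ccl2 made up 10.7% and 11.9% in WT and 19.9% and 20.8% in KO.

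**Figure D2:**
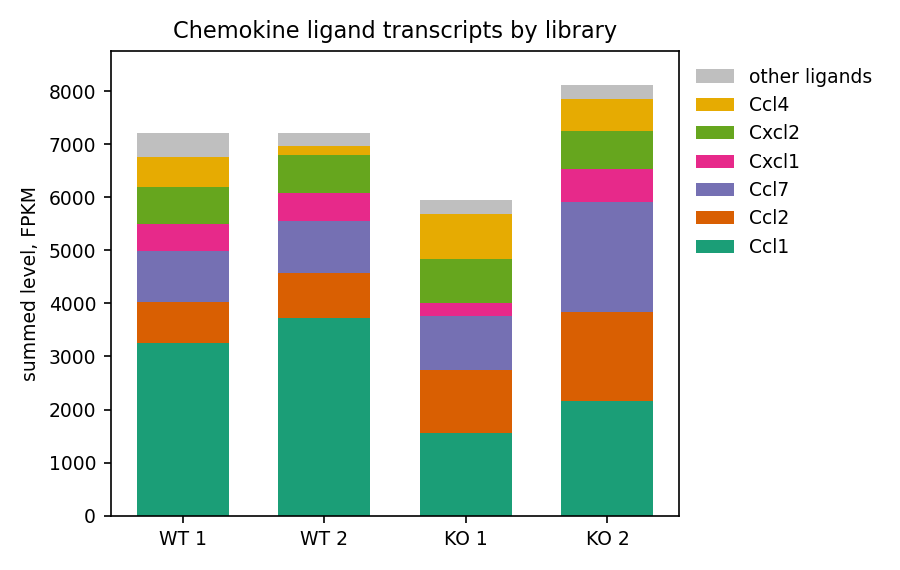
Summed FPKM of the 34 chemokine ligand genes in each library (y axis), split into the 6 most abundant genes and the rest. The bars are of like height, from 5956.7 to 8111.0 FPKM, while the Ccl1 share is 45.1% and 51.6% in WT and 26.1% and 26.6% in KO.

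Ccl1, the ligand of Ccr8 that attracts type 2 lymphocytes, was the most abundant member. It stood at 3249.7 and 3721.4 FPKM in WT, compared with 1555.8 and 2155.5 in KO. Both KO libraries lay below both WT libraries, and the KO mean was 0.532 of the WT mean. The log2 fold change was -0.92 (SE 0.18), which did not pass over all genes (limma, adjusted p = 0.129), and it lay between -1.16 and -0.69 with each library left out. Ccl1 (gene 20290) lies on chromosome 11 from 82176666 to 82179812 on GRCm38.p6, at one end of a cluster of CC ligand genes that includes Ccl2, Ccl7, Ccl11 and Ccl8.

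All 8 inflammatory CC ligands were tested, and 6 had a positive log2 fold change, beside 49.1% of all genes tested, with a median of 0.40. Of the 6, Ccl6 and Ccl9 passed the filter through KO alone, so they had to be higher there. Ccl6 had its level in KO replicate 2, and Ccl8 was at 0.00 FPKM in replicate 2 of both groups. The negative pair was Ccl3 and Ccl5, and Ccl3 turned positive under TPM scaling, which moved the median of all genes to 0.09. Their summed level was 2397.0 and 2040.4 FPKM in WT, compared with 3111.3 and 4430.2 in KO, most of it from Ccl2, Ccl7 and Ccl4. Ccl2 and Ccl7, which attract monocytes through Ccr2, lie next to each other in that cluster and were higher in both KO libraries. Ccl2 (gene 20296) spans 82035577 to 82037452 on chromosome 11. It stood at 773.1 and 857.6 FPKM in WT, against 1186.1 and 1690.4 for KO. The groups did not overlap, with an estimate of 0.80 on the log2 scale (SE 0.20; limma, adjusted p = 0.218). Ccl7 (gene 20306, from 82045712 to 82047525) stood at 956.1 and 979.4 FPKM in WT, compared with 1012.3 and 2062.3 in KO. One KO library lay just above WT and the other far above it, and the log2 fold change, 0.58 (SE 0.29; limma, adjusted p = 0.572), was 0.07 without KO replicate 2. KO replicate 2 was also the library with the highest sum of mast cell and basophil markers, and the part of those cells in the levels of Ccl1, Ccl2 and Ccl7 was not tested. In bulk RNA, fewer cells of a type and less RNA per cell cannot be told apart.

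Ccl3, Ccl4 and Ccl5 attract T cells, monocytes and natural killer cells. Ccl4 stood at 559.6 and 157.7 FPKM in WT, against 849.8 and 595.5 for KO. The WT libraries lay far apart, and the lower KO library was just above the higher WT library. The log2 fold change was 1.26 (SE 0.49; limma, adjusted p = 0.483) and 0.35 without WT replicate 2. Ccl3 stood at 29.6 and 13.2 FPKM in WT, compared with 20.7 and 16.1 in KO, with both KO libraries between the WT libraries. RefSeq places Ccl3 on chromosome 11 from 83647843 to 83649378 and Ccl4 from 83648624 to 83664683, so the genes overlap, and reads in the shared part may be split between them. Ccl5 stood at 72.0 and 32.3 FPKM in WT, against 33.7 and 56.7 for KO, also within the WT range.

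**Figure D3:**
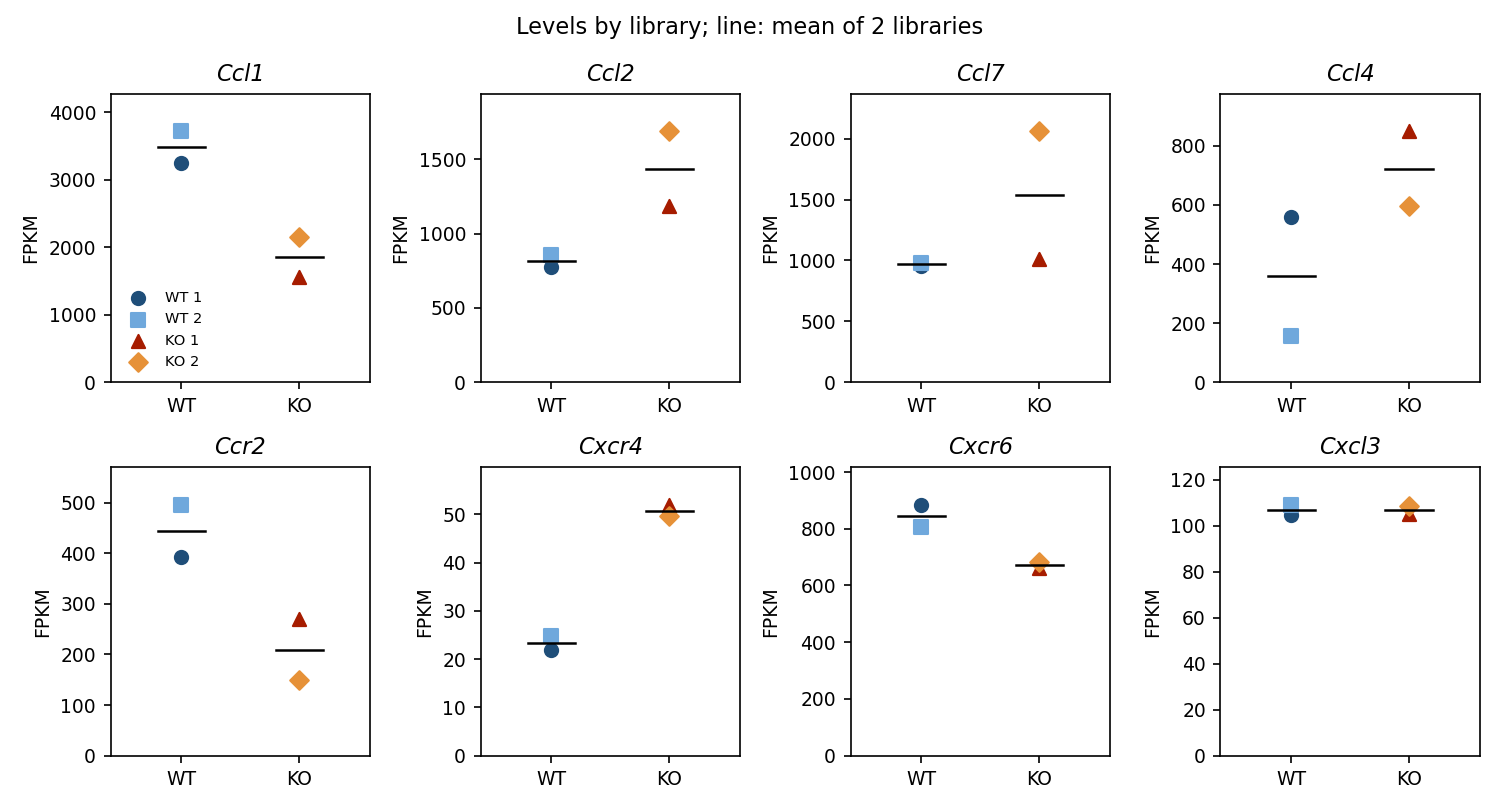
FPKM (y axis, from 0) of 8 members in each library by group, with a line at the mean of 2 libraries. Ccl1, Ccr2 and Cxcr6 lie lower and Ccl2, Ccl4, Ccl7 and Cxcr4 higher in both KO libraries than in both WT libraries, while the 4 values of Cxcl3 lie between 104.5 and 109.2 FPKM.

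The neutrophil-attracting ligands Cxcl1, Cxcl2 and Cxcl3, which act through Cxcr2, did not separate the groups. With the low Cxcl15 they summed to 1326.2 and 1350.5 FPKM in WT, compared with 1194.0 and 1449.4 in KO. Cxcl2 stood at 695.8 and 729.4 FPKM in WT, compared with 841.0 and 722.5 in KO (log2 fold change 0.13, SE 0.17; limma, adjusted p = 0.870). Cxcl3 stood at 104.5 and 109.2 FPKM in WT, against 104.9 and 108.7 for KO, and the means of the groups, 106.84 ± 3.27 and 106.81 ± 2.73 FPKM (SD, n = 2 each), were nearly equal. Its log2 fold change was within 0.01 of 0 (SE 0.23), with a sign that turned under TPM and median-ratio scaling. Cxcl1 stood at 525.8 and 511.9 FPKM in WT, compared with 248.1 and 618.1 in KO, so the KO libraries lay on either side of WT. These 3 genes share the NF-kB motif printed above. The other members with it, Ccl1, Cxcl10 and Ccr3, were lower in both KO libraries, though Ccr3 was low and passed the filter through WT alone. A link between the motif and these levels was not tested. Cxcl10, a ligand of Cxcr3 induced by interferon, stood at 85.8 and 79.6 FPKM in WT, against 75.1 and 55.4 for KO, below WT in both (log2 fold change -0.35, SE 0.27; limma, adjusted p = 0.748). The gene overlaps Art3, so shared reads may be split between them.

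Among the receptors, Cxcr6, Ccr8 and Ccr2 had the highest levels. The 24 receptors summed to 1913.8 and 1788.3 FPKM in WT and to 1579.9 and 1344.6 FPKM in KO. Both KO sums lay below both WT sums. As a share of all FPKM the groups overlapped, since KO replicate 1 had 0.1681%, just above the 0.1672% of WT replicate 2. The receptor share was highest in WT replicate 1, at 0.194%, and lowest in KO replicate 2, at 0.143%. Total FPKM over all genes was also lower in KO, at 939623 and 943240, compared with 986027 and 1069515 for WT. Of the 11 CC receptors, 9 were tested, 7 of these had a negative log2 fold change, beside 50.9% of all genes tested. In 5 of the 9 both KO libraries lay below both WT libraries, beside 20.6% of all genes tested. Ccr1 and Ccr3 are in both counts and passed the filter through WT alone, so they had to be lower in KO. Cxcr6, the receptor of Cxcl16 found on resident lymphocytes, stood at 885.0 and 805.9 FPKM in WT, compared with 663.3 and 683.5 in KO. The groups did not overlap, and the log2 fold change was -0.33 (SE 0.16; limma, adjusted p = 0.574). Its gene overlaps Fyco1, so shared reads may be split between them. Its ligand gene Cxcl16 was low, at 3.43 and 1.48 FPKM in WT, against 0.23 and 0.00 for KO.

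Ccr2, the receptor of Ccl2 and Ccl7, was lower in KO where these ligands were higher. It stood at 391.8 and 496.2 FPKM in WT, compared with 269.9 and 148.9 in KO, and its KO mean was 0.472 of the WT mean. The log2 fold change was -1.13 (SE 0.29; limma, adjusted p = 0.229), and -0.71 without KO replicate 2. Ccr2 (gene 12772) lies on chromosome 9 from 124101918 to 124109140. Monocytes and macrophages can also carry Ccr2. The 11 macrophage and dendritic cell markers in the table summed to 14.02 and 8.41 FPKM in WT, compared with 7.33 and 24.2 in KO, with H2-Aa the highest of them in every library, at 13.4 and 4.21 FPKM in WT and 6.63 and 13.1 FPKM in KO. Of the 11, 7 were under 1 FPKM throughout, and Csf1r, Itgax and Fcgr1 were at 0 in all 4 libraries. The part of such cells in the Ccr2 level was not tested.

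Cxcr4, the receptor of Cxcl12 that holds cells in bone marrow and tissue, was the receptor gene with the highest fold change toward KO among those tested. It stood at 21.9 and 24.9 FPKM in WT, compared with 52.0 and 49.6 in KO. The replicates lay close together and the KO mean was 2.17 times the WT mean, with an estimate of 1.09 on the log2 scale (SE 0.30; limma, adjusted p = 0.268). It stayed between 1.00 and 1.18 with each library left out. Cxcl12 itself was at 0.51 FPKM in WT replicate 2 and at 0 in the other libraries. Cxcr4 (gene 12767) lies on chromosome 1 from 128588199 to 128592299.

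Ccr8, the receptor of Ccl1 and a receptor of type 2 lymphocytes in tissue, stood at 391.3 and 305.7 FPKM in WT, against 448.2 and 276.8 for KO. The KO libraries lay on either side of WT, and the log2 fold change was 0.03 (SE 0.26; limma, adjusted p = 0.989). Ccr4, which binds Ccl17 and Ccl22, stood at 14.6 and 18.7 FPKM in WT, compared with 18.2 and 22.8 in KO, and the groups overlapped. Ccr7, which guides cells to lymph nodes along Ccl19 and Ccl21, stood at 14.2 and 6.63 FPKM in WT, against 6.21 and 0.84 for KO, lower in both KO libraries (log2 fold change -1.56, SE 0.71; limma, adjusted p = 0.544). Its log2 fold change was -0.58 without KO replicate 2. Xcr1, the receptor of Xcl1 known from dendritic cells, stood at 18.0 and 12.1 FPKM in WT, compared with 10.2 and 13.8 in KO, with the groups overlapping.

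Ccrl2, an atypical receptor that binds chemerin and presents it to other cells, stood at 119.2 and 94.2 FPKM in WT, against 91.0 and 135.5 for KO, on either side of WT. Ackr1, which binds many chemokines on red blood cells and on the endothelium of venules, was led by 1 library. It stood at 27.4 and 2.54 FPKM in WT, compared with 0.23 and 0.00 in KO. The log2 fold change, -3.18 (SE 0.90; limma, adjusted p = 0.284), was -1.67 without WT replicate 1. Blood endothelial markers summed to 7.63 and 9.39 FPKM in WT, compared with 7.58 and 8.52 in KO, and the red blood cell sums are given above. Most of the endothelial sum was Pecam1, at 5.05 and 9.11 FPKM in WT and 7.25 and 7.98 FPKM in KO. Cdh5, Kdr, Emcn, Cldn5 and Vwf were low but, like Ackr1, highest in WT replicate 1, and Tie1 was not. Cldn5 stood at 1.23 and 0.11 FPKM in WT, against 0.04 and 0.35 for KO. The part of such cells in the Ackr1 level was not tested. Ackr1 overlaps Cadm3 in RefSeq. The other atypical receptors, Ackr2, Ackr3 and Ackr4, reached at most 0.17 FPKM.

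**Figure D4:**
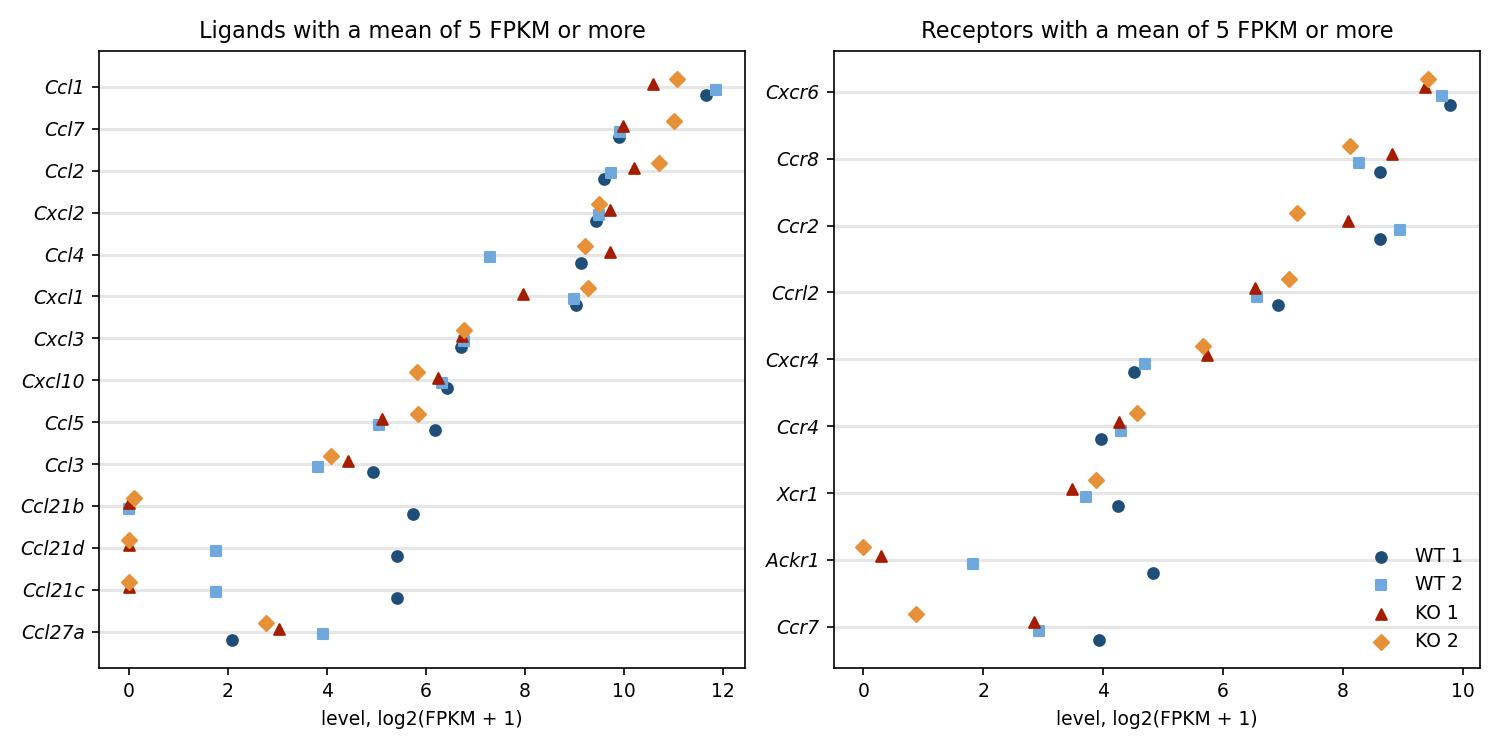
Level of the ligands (left) and receptors (right) reported here whose mean reached 5 FPKM, as log2(FPKM + 1) on the x axis, with genes in order of their mean. Ccl1 and Cxcr6 stand at the top, most genes have their 4 points within a narrow range, and the Ccl21 genes and Ackr1 are spread, with WT replicate 1 highest.

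The Ccl21 genes, near-identical copies that encode a ligand of Ccr7 made by lymphatic endothelium and lymph node stroma, were seen almost only in WT replicate 1. Ccl21b stood at 52.7 and 0.00 FPKM in WT, against 0.00 and 0.08 for KO. Ccl21c and Ccl21d had the same values as each other, 41.8 and 2.39 FPKM in WT and 0.00 in both KO libraries. Ccl21a was at 0.22 FPKM in KO replicate 2 and at 0 in the other libraries. The GENCODE M21 transcript of Ccl21b matched that of Ccl21a at 400 of its 402 bases, so which copy the reads came from is uncertain, and the copies are not separate measurements. Without WT replicate 1 the log2 fold change of Ccl21b went from -2.82 (SE 1.49; limma, adjusted p = 0.592) to 0.06, and that of Ccl21c and Ccl21d from -3.59 (SE 1.03; limma, adjusted p = 0.286) to -1.76.

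Markers of lymphatic endothelium were low in every library, and their sum was highest in WT replicate 1, as were Ccl21b, Ccl21c and Ccl21d. All 6 lymphatic endothelial markers were under 1 FPKM in every library, with sums of 0.83 and 0.12 FPKM in WT and 0.17 and 0.07 FPKM in KO. Of the 0.83 FPKM, 0.53 FPKM was Pdpn, which is also in the stromal list. Prox1 and Reln were highest there too, at 0.15 and 0.13 FPKM. Lyve1 was seen only in KO, at 0.02 FPKM in both libraries, and Flt4 and Mmrn1 did not exceed 0.01 FPKM. Stromal markers summed to 18.2 and 9.76 FPKM in WT and to 1.26 and 2.45 FPKM in KO, and in WT most of it came from Dcn, while Lum was at 0 throughout. Fabp4, a lipid carrier of adipocytes and capillaries, stood at 138.9 and 0.68 FPKM in WT, compared with 15.8 and 21.1 in KO, so it too was highest in WT replicate 1. The other adipocyte markers were divided. Cfd, at 0.49 and 4.71 FPKM in WT and 17.5 and 5.02 FPKM in KO, was highest in KO replicate 1, as were the low Adipoq and Lep. Cidec was highest in WT replicate 2. Plin1, Plin4 and Lipe were highest in WT replicate 1, at no more than 0.19 FPKM. Other members were also highest in WT replicate 1. Xcl1, which attracts dendritic cells, stood at 4.86 FPKM there and at 0 in the other 3. Ccl11, which attracts eosinophils through Ccr3, stood at 3.90 and 1.06 FPKM in WT, and both KO libraries were at 0. Ccl22, a ligand of Ccr4, was at 2.54 and 0.03 FPKM in WT and at 0 in KO. Ccr3, the receptor of Ccl11, was at 6.25 and 1.89 FPKM in WT, against 1.31 and 0.05 for KO. Eosinophil markers, Ccr3 among them, summed to 11.6 and 3.19 FPKM in WT, compared with 3.25 and 0.18 in KO. Ccr3 itself was the largest part of this sum in both WT libraries, so the sum is not a measurement separate from Ccr3. Siglecf, Epx, Ear1 and Ear6 did not exceed 0.25 FPKM, and Siglecf and Ear1 were seen only in KO replicate 1. The part of other cells in these values was not tested.

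**Figure D5:**
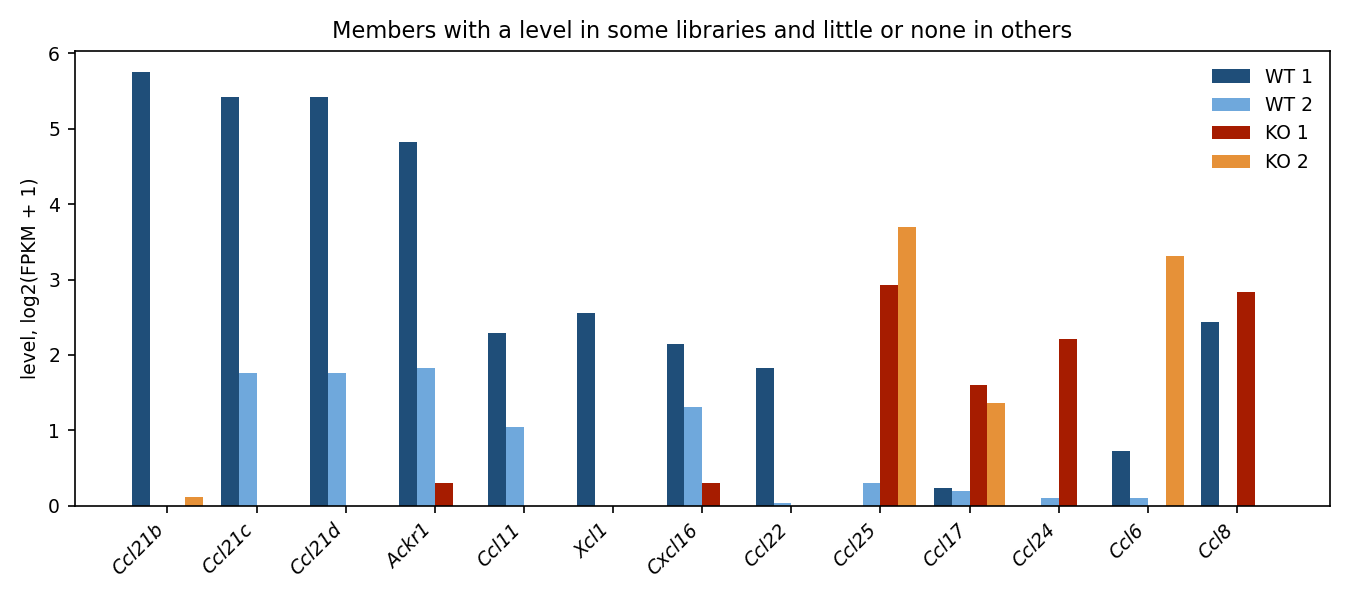
Level, as log2(FPKM + 1) on the y axis, of 13 members present in some libraries and near 0 in others, with a bar per library. The Ccl21 genes and Ackr1 are highest in WT replicate 1, Ccl25 and Ccl17 are higher in both KO libraries, and Ccl24, Ccl6 and Ccl8 vary from library to library.

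Ccl25, which attracts cells that carry Ccr9 and is best known from gut and thymus, was nearly at 0 in WT. It stood at 0.00 and 0.23 FPKM in WT, compared with 6.63 and 11.9 in KO. Its mean passed the filter through KO alone, so it had to differ to be tested. The log2 fold change was 3.16 (SE 0.57; limma, adjusted p = 0.0986), which was 5.63 with a pseudocount of 0.1. Its receptor gene Ccr9 stood at 3.53 and 2.80 FPKM in WT, against 6.28 and 0.03 for KO, on either side of WT. Ccl17, a ligand of Ccr4, stood at 0.18 and 0.15 FPKM in WT, compared with 2.03 and 1.58 in KO, and its mean of 0.985 FPKM was under the filter. Ccl27a, a skin chemokine, stood at 3.25 and 14.2 FPKM in WT, against 7.26 and 5.83 for KO, within the WT range, and its gene overlaps Il11ra1.

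Ligands best known from macrophages varied between libraries and not with the groups. Ccl6 was at 0.65 and 0.07 FPKM in WT, compared with 0.00 and 8.95 in KO, and Cd68, a macrophage marker, was at 8.66 FPKM in the same KO library and at no more than 0.21 FPKM in the other 3. Of the other macrophage and dendritic cell markers, Lyz2 was also highest there, at 1.94 FPKM. Adgre1 was highest in WT replicate 2, at 4.20 FPKM against 0.48 in KO replicate 2, and H2-Aa in WT replicate 1. The rest did not exceed 0.05 FPKM. The part of such cells in the Ccl6 level was not tested. Ccl8 stood at 4.43 and 0.00 FPKM in WT, against 6.14 and 0.00 for KO. Ccl24 was at 3.65 FPKM in KO replicate 1 and at no more than 0.07 FPKM elsewhere. Ccl9 stood between 0.14 and 2.51 FPKM. Of the receptors, Cxcr2 stood between 1.84 and 3.36 FPKM, Ccr1 at 1.26 and 2.18 FPKM in WT and 0.51 and 0.27 FPKM in KO, Ccr1l1 between 0.28 and 2.68 FPKM, and Cx3cr1 between 0.05 and 1.89 FPKM. The members Ccl19, Ccl27b, Ccl28, Cxcl9, Cxcl13, Cxcl14, Cxcl15, Cx3cl1, Ccr6, Ccr10, Cxcr1, Cxcr3 and Cxcr5 stayed under 1 FPKM in every library.

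None of the genes that carry the signal of chemokine receptors into the cell passed the test: of 46 such genes, 39 had a mean of 5 FPKM or more, 45 were tested and 0 passed over all genes (limma), with a median log2 fold change of 0.08. At an unadjusted p under 0.05 stood 2 higher and 1 lower in KO, beside 4.69% and 4.49% of all genes tested. Gnai2, the inhibitory G protein subunit that these receptors use most in leukocytes, stood at 48.5 and 47.3 FPKM in WT, compared with 112.2 and 71.3 in KO (log2 fold change 0.89, SE 0.30; limma, adjusted p = 0.384). Gnb2, a G protein beta subunit, stood at 63.8 and 49.7 FPKM in WT, against 91.8 and 82.2 for KO. Rgs2, which shortens G protein signals, stood at 1665.6 and 1892.4 FPKM in WT, compared with 1558.6 and 1053.1 in KO. Pik3cd, a catalytic subunit of PI3 kinase, stood at 19.99 and 16.1 FPKM in WT, against 8.76 and 10.6 for KO. Gnai2 and Gnb2 were higher and Rgs2 and Pik3cd lower in both KO libraries.

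Of 30 other attractants and receptors of migration, 28 were in the table and 21 were tested, and 0 passed over all genes (limma). At an unadjusted p under 0.05 stood 3 higher and 1 lower in KO, beside 4.69% and 4.49% of all genes tested, and the median log2 fold change was 0.22. Klf2, a transcription factor that drives S1pr1 in T cells, stood at 23.3 and 23.0 FPKM in WT, compared with 69.9 and 57.6 in KO (log2 fold change 1.42, SE 0.29; limma, adjusted p = 0.144). Cd69, which keeps lymphocytes in tissue by taking S1pr1 off the surface, stood at 201.5 and 247.6 FPKM in WT, against 429.8 and 346.4 for KO (log2 fold change 0.79, SE 0.22; limma, adjusted p = 0.270). S1pr1, the receptor for exit into lymph, stood at 4.98 and 2.60 FPKM in WT, compared with 8.16 and 0.69 in KO, on either side of WT. S1pr4 stood at 12.02 and 5.25 FPKM in WT, compared with 21.7 and 24.2 in KO. P2ry10, a lipid receptor of lymphocytes, stood at 326.4 and 311.5 FPKM in WT, against 225.9 and 218.3 for KO. Klf2, Cd69 and S1pr4 were higher and P2ry10 lower in both KO libraries.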

How the data were processed

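RNA was measured in 4 libraries of sorted adipose ILC2s, 2 WT and 2 KO, each from 2000 to 4000 cells per the labels. The authors deposited 1 table of FPKM values, rounded to 2 decimals. Bowtie2, RSEM and DESeq2 were used with GRCm38.p6 per the submitters' processing notes, and no source used here gives their roles or settings. Without counts, count models and counting intervals could not be used. FPKM is relative: a few abundant genes move the values of others, and reads shared by near-identical or overlapping genes are split. Strand use and the sort gate are not given in the sources.

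The test was limma 3.58.1 on log2(FPKM + 1) (R 4.3.3; trend and robust) over 9818 genes (mean across libraries 1 FPKM or more), with group as the only term and Benjamini-Hochberg adjustment over all of them. Fold changes on this scale understate those of low genes. An exact permutation test of 2 against 2 cannot pass 0.05 and was not used. The threshold is an adjusted p of 0.05. The members and lists were chosen with earlier results of these data known. Every member with a mean of at least 5 FPKM, every member with an unadjusted p under 0.05 and the Ccl21 genes were named with all values, and up to 4 genes of each list, by smallest p, beside S1pr1 and, as the targeted gene, Stk11; some genes the rule covers enter the counts and are not reported here. The other members with values, the single cell type markers given with values or directions, and the grouping of low members were picked after their values were seen. Of the 58 members, 58 matched RefSeq, which gave coordinates (GRCm38.p6) and promoter windows. Approximate depth came from the steps of low values with 200 nt subtracted from each transcript length, where the score for steps was 0.422 to 0.485, and no more than 0.116 after each of 20 shuffles.

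The KO and WT test was tried on simulated data, and in 10 runs on 9818 genes it called 0.20% of the genes given a log2 change of 1, 4.8% at 2, 23.4% at 3 and 32.6% at 4, as well as 3 of 96180 unchanged genes. The noise of each simulated gene was drawn from its own spread within the groups, so these shares hold for that setting. Alternatives covered the pseudocount, filter, scaling, variance moderation, the replicate block and each library left out.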

Additional observations from a re-analysis of the deposited data

How the results depend on the processing

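The count of members past the threshold stayed at 0 in the main test and in all 12 alternatives, in which the smallest adjusted p of a named member was 0.0735 (limma). The count over all genes, 21, was 0 with quantile normalization, with 0.1 as pseudocount, with no filter, without trend and robust moderation, with the replicate block and with each library left out (0 to 0), and 1 with median-ratio scaling. The members' median log2 fold change of -0.31 was -0.035 with no filter (58 members) and -0.10 with a filter of 5 FPKM in 2 libraries (21 members), and ran from -0.53 to -0.027 with each library left out. The replicate numbers are not said to pair the libraries, and same-numbered libraries deviated with a correlation of 0.03; with the replicate block the members' median was -0.31 and 0 members passed. Of the 25 members the naming rule covers, 17 kept their direction in every alternative in which they were tested. Direction turned with TPM scaling in Ccl27a (0.015), Ccl3 (0.0051) and Cxcl3 (0.12), and with median-ratio scaling in Cxcl3 (0.021). With a library left out the ranges crossed 0 in Ccl21b (-5.69 to 0.056), Ccl27a (-1.02 to 0.82), Ccl3 (-0.66 to 0.44), Ccl5 (-0.70 to 0.43), Ccr8 (-0.32 to 0.37), Ccrl2 (-0.22 to 0.35), Cxcl1 (-1.06 to 0.25) and Cxcl3 (-0.031 to 0.031); the cause was not tested. Quantile normalization gave -0.63 for Ccl1. With 2 libraries a group, a change of 1 on the log2 scale was rarely called in the simulated data, so differences of this size could pass unseen.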

Other observations

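Ratios between members of the same library do not depend on how that library was scaled; these pairs were picked after the values were seen and were not tested. The ratio of Ccl1 to Ccl2 was 4.20 and 4.34 in WT, compared with 1.31 and 1.28 in KO, with the replicates close together. The ratio of Ccl1 to Ccl7 was 3.40 and 3.8 in WT, compared with 1.54 and 1.05 in KO. Among the receptors, the ratio of Cxcr4 to Cxcr6 was 0.0247 and 0.0309 in WT, compared with 0.0784 and 0.0725 in KO, and that of Ccr8 to Ccr2 was 0.999 and 0.616 in WT, compared with 1.66 and 1.86 in KO. The ratio of Ccl4 to Ccl3, the overlapping pair, was 18.9 and 11.9 in WT, compared with 41.0 and 36.9 in KO. The ratio of Cxcl2 to Cxcl3 was 6.66 and 6.68 in WT, compared with 8.02 and 6.64 in KO.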
